A study of Saccharomyces cerevisiae with 18 samples.

Results

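Chromatin accessibility in the later Oxidative phase of the yeast metabolic cycle was set against that in early Reductive Charging, over the nuclear part of the genome. The later Oxidative group held the libraries of time points 8, 9 and 10, and the early Reductive Charging group those of time points 1 to 5, so 8 of the 18 libraries of the series entered the comparison. All 8 came from budding yeast, Saccharomyces cerevisiae, grown in a fermenter and fixed with formaldehyde before nuclei were treated with transposase. The labels give phase and time point for each library. The sources used here give no strain, genotype or medium. In ATAC-seq a transposase cuts open DNA and tags it with sequencing adapters, and the deposited table counts the reads at each peak. Of its 2086 peaks, the 2042 nuclear peaks outside the ribosomal DNA were tested. Peaks were linked to every coding gene whose annotated 5′ end lay within 500 bp, which gave 1766 linked peaks and 2664 genes. Genes of both strands were linked to 691 peaks, which do not say which gene they serve.

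The yeast metabolic cycle is an oscillation of oxygen uptake in dense, nutrient-limited cultures. In the Oxidative phase cells respire rapidly, and genes of ribosomes, translation and amino acid synthesis are known to peak in mRNA. In Reductive Charging cells build stress resistance and stores, and genes for storage carbohydrate, fatty acid oxidation, acetyl-CoA metabolism and protein folding are known to peak. Genes of cell division and mitochondrial genes are known to peak in Reductive Building. Each library is a bulk measurement, so fewer cells with an open site and a less open site in every cell cannot be told apart.

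The 3 later Oxidative libraries held 6372179, 12454643 and 28728832 counts, and the 5 early Reductive Charging libraries held 10261280 to 29314373. Nuclear peaks took 2882700 to 12477489 of these counts in later Oxidative libraries and 2073443 to 7857420 in early Reductive Charging libraries. At most 8 nuclear peaks stood at 0 in any of the 8 libraries. Mitochondrial peaks took 16.0%, 34.7% and 16.1% of the counts in later Oxidative libraries (22.2% ± 10.8, SD, n = 3), against 48.1% to 65.5% in early Reductive Charging libraries (55.2% ± 6.63, SD, n = 5). Ribosomal DNA peaks took 38.8%, 30.3% and 40.5% in later Oxidative libraries (36.5% ± 5.43, SD, n = 3) and 12.5% to 25.1% in early Reductive Charging libraries (16.3% ± 5.04, SD, n = 5). The shares are parts of 1 total, so they are not independent of each other. Set against nuclear counts, the ribosomal DNA counts of the groups overlapped. Time point 4 held 7367640 ribosomal DNA and 7857420 nuclear counts, and time point 10 held 11632345 and 12477489. Both shares of the total separated the groups completely (two-sided exact permutation test, p = 0.0179 for each, adjusted p = 0.0179 over the 2 shares, the smallest value that the 56 splits allow). Nuclear values below are therefore CPM, nuclear counts scaled to a common library total, which carry no information on these shares, and the part of either share in a nuclear result was not tested. Spearman correlations of nuclear values were 0.873 to 0.889 among later Oxidative libraries, 0.931 to 0.956 among early Reductive Charging libraries and 0.845 to 0.873 between the groups. The median SD of a peak on the log2(CPM + 1) scale was 0.46 in later Oxidative libraries and 0.34 in early Reductive Charging libraries.

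Each time point has 1 library, and the time points of a group were used as replicates. Thus p-values reflect nothing beyond the spread of time points within a group, and neighbouring time points are not independent. The series was collected in 2 batches that the labels do not assign, so batch and phase cannot be told apart.

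Accessibility changed at 332 of the 2042 peaks (16.3%; edgeR quasi-likelihood test, adjusted p below 0.05). It was higher in later Oxidative libraries at 154 peaks (7.54%) and lower at 178 (8.72%). Both shares are the background for the counts in gene lists below. Over all peaks, all 3 later Oxidative values lay above all 5 early Reductive Charging values at 251 peaks (12.3%) and below them at 239 (11.7%). Of the called peaks, 139 of the 154 higher ones and 168 of the 178 lower ones were separated in this way. The 12 highest and 12 lowest named peaks below were taken only from these separated peaks. Their lack of overlap therefore follows from that choice. The fold change exceeded 2-fold at 77 higher and 109 lower peaks. The median log2 fold change, later Oxidative over early Reductive Charging, was 0.02 over all peaks. When each library was left out in turn, 194 of the 332 calls held in all 8 fits, 82 of them higher and 112 lower.

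**Figure D1:**
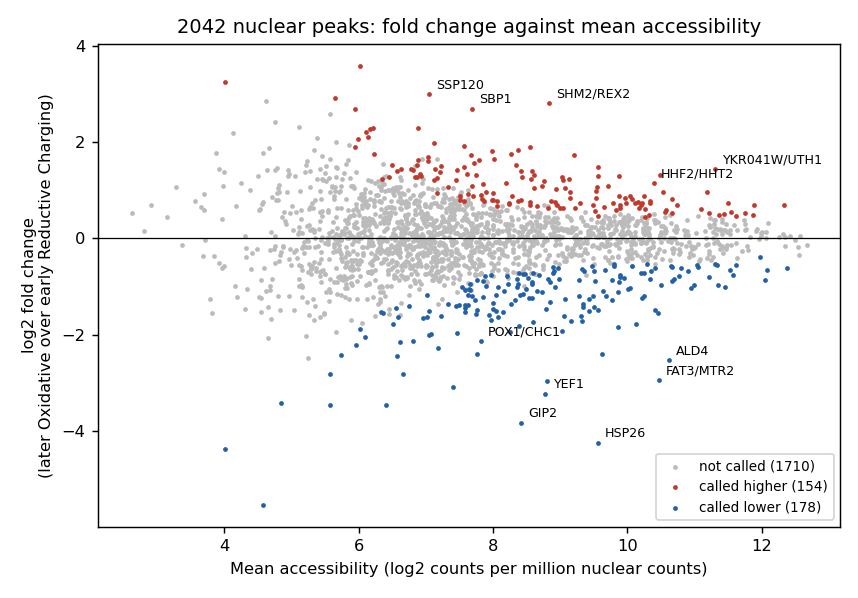
Log2 fold change (later Oxidative over early Reductive Charging) of the 2042 nuclear peaks against their mean accessibility in log2 CPM; each point is a peak, red for the 154 called higher, blue for the 178 called lower and grey for the rest. Calls of both directions run over most of the range of accessibility, and the steepest folds are on the lower side.

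Genes of the general stress response, which protect cells from heat, oxidants and starvation, formed the largest block of lower peaks. Of 43 peaks linked to this list, 23 fell in later Oxidative libraries and 0 rose, with a median log2 fold change of -0.84. Between 18 and 22 of the 43 were called lower when each library was left out in turn. The peak of CTT1, the cytosolic catalase, had 432, 308 and 331 CPM in later Oxidative libraries, against 966, 963, 922, 1210 and 916 CPM in early Reductive Charging libraries (log2 fold change -1.48 ± 0.18, SE; adjusted p = 4.48e-05). The peak of HSP26, a small heat shock protein that binds unfolded proteins, had 140.5, 6.82 and 43.6 CPM in later Oxidative libraries and 871, 1242, 1512, 1103 and 1118 CPM in early Reductive Charging libraries. The CTT1 groups did not overlap. HSP26, named from peaks without overlap, fell by 4.23 ± 0.79 on the log2 scale (SE; adjusted p = 0.00623). Its call was lost without the library of time point 10, where the log2 fold change was -4.01 with an adjusted p of 0.0533. Without time point 8 it was -5.44.

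Other members of the stress list fell by smaller amounts. TIP1 and YGP1, which encode cell wall and secreted glycoproteins of starved cells, fell by 1.03 ± 0.16 and 1.10 ± 0.18 on the log2 scale (SE). HSP12, a membrane-protecting stress protein that shares its peak with MDJ1, fell by 1.02 ± 0.19. The peak shared by PAI3, a proteinase inhibitor, and SIP18, a desiccation protein, fell by 1.99 ± 0.36, and that of MRK1, a kinase related to glycogen synthase kinase 3, fell by 1.68 ± 0.32. GRE2, a methylglyoxal reductase, had 0, 18.3 and 1.37 CPM in later Oxidative libraries and 65.6, 60.8, 47.9, 52.1 and 130.6 CPM in early Reductive Charging libraries. GRE2 was named from peaks whose groups did not overlap. Its call was lost (adjusted p between 0.0506 and 0.103) without any one of time points 1, 2, 3, 4, 5 and 10. Without time point 9 its log2 fold change of -3.45 became -6.29.

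The chaperone list shares with the stress list the genes HSP12, HSP26, HSP42 and HSP78. Of 19 chaperone peaks, 6 fell and 0 rose (median -0.68). HSP42, a small heat shock protein that sorts aggregates, had 195, 185 and 219.5 CPM in later Oxidative libraries and 420.4, 534, 476, 521 and 409.7 CPM in early Reductive Charging libraries (-1.24 ± 0.21, SE; adjusted p = 0.000615). HSP78, a mitochondrial disaggregase, fell by 2.26 ± 0.49 on the log2 scale, and by 2.95 without time point 10. AHA1, which activates the ATPase of Hsp90, fell by 2.81 ± 0.63, and by 3.78 without time point 10. In the list of redox defence, beside 8.72% lower over all peaks, 3 of 18 peaks fell and 0 rose (median -0.31). These were CTT1, the mitochondrial cytochrome c peroxidase gene CCP1, whose peak it shares with GPT2 (-1.96 ± 0.33), and the thiol peroxidase gene AHP1 (-0.93 ± 0.24). Without time point 10, 5 redox peaks fell.

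Several peaks of storage carbohydrate genes fell. Trehalose and glycogen are the glucose stores of yeast, and both pathways start from UDP-glucose made by PGM2, a phosphoglucomutase, and UGP1, the UDP-glucose pyrophosphorylase. Of 7 trehalose peaks, 5 fell and 0 rose (median -1.63), and of 13 glycogen peaks, 6 fell and 0 rose (median -0.55). The peaks of PGM2 and UGP1 are on both lists, so their falls count in both. The peak shared by UGP1 and AIM26 (XI:368898-369892, R64) had 124, 101.3 and 106 CPM in later Oxidative libraries and 429, 409, 460.5, 453 and 364 CPM in early Reductive Charging libraries (-1.94 ± 0.23, SE; adjusted p = 3.77e-05). PGM2 had 30.0, 21.7 and 123 CPM in later Oxidative libraries and 286 to 341 CPM in early Reductive Charging libraries, a log2 fold change of -2.40 ± 0.47 that became -3.59 without time point 10. UGP1 separated the groups. PGM2 was named from separated peaks, and its later Oxidative values lay far apart from one another.

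Enzymes on both sides of the stores were among the lower peaks. TPS2, the trehalose-6-phosphate phosphatase, had 107, 224 and 241 CPM in later Oxidative libraries and 628, 744, 749, 818 and 653 CPM in early Reductive Charging libraries (-1.91 ± 0.25, SE). GPH1, which breaks glycogen down, had 659, 466 and 215 CPM in later Oxidative libraries and 1315, 1384, 1918, 1722 and 1283 CPM in early Reductive Charging libraries (-1.78 ± 0.28, SE). GLC3, the branching enzyme that builds it, fell by 1.56 ± 0.30 on the log2 scale. The glycogen synthase genes did not pass the test, with log2 fold changes of -0.22 ± 0.21 at GSY1 and -0.55 ± 0.40 at GSY2. GIP2, which encodes a presumed glycogen-related subunit of the phosphatase Glc7 and was on no list, had 55.6, 23.1 and 32.7 CPM in later Oxidative libraries and 431, 379, 494, 719 and 580.1 CPM in early Reductive Charging libraries (-3.82 ± 0.34, SE; adjusted p = 1.81e-06).

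The genes that make acetyl-CoA from acetate and ethanol or feed gluconeogenesis formed the next group. Of 20 peaks, 9 fell and 0 rose (median -0.62), and 8 or 9 fell in every fit that left out 1 library. The peak of ALD4, the mitochondrial aldehyde dehydrogenase (XV:1038974-1040046), had 384, 487 and 323 CPM in later Oxidative libraries, against 2064, 2037, 2162, 2966 and 2158 CPM in early Reductive Charging libraries. The fold change of ALD4 was -2.52 ± 0.19 on the log2 scale (SE; adjusted p = 3.19e-07), far beyond the spread of either group. ADY2, an acetate transporter, fell by 1.74 ± 0.20, ACS1, an acetyl-CoA synthetase, by 1.11 ± 0.27, JEN1, the lactate and pyruvate transporter, by 0.96 ± 0.18, ALD6, the cytosolic aldehyde dehydrogenase, by 0.85 ± 0.14 and FBP1, the fructose-1,6-bisphosphatase of gluconeogenesis, by 0.81 ± 0.18. The glyoxylate cycle enzymes ICL1 and MLS1 and the gluconeogenic PCK1 did not pass, with log2 fold changes of -0.57 ± 0.29, -0.22 ± 0.18 and -0.21 ± 0.16.

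Some peaks of other carbon and lipid-burning genes also fell. POX1, the peroxisomal acyl-CoA oxidase and an accepted mark of Reductive Charging, shares its peak with CHC1 (VII:107546-108138). That peak had 78.7, 61.6 and 78.1 CPM in later Oxidative libraries and 370.3, 436, 260.1, 272 and 243 CPM in early Reductive Charging libraries (-2.12 ± 0.30, SE; adjusted p = 0.00018). Of the 14 peaks of fatty acid oxidation and peroxisomes, 4 fell and 0 rose (median -0.61), and 2 fell without any one of time points 1, 3, 4 and 5. FAT3, a gene of fatty acid uptake that shares its peak with MTR2, had 272, 229 and 326 CPM in later Oxidative libraries and 1896, 2409, 2288, 2121 and 1766 CPM in early Reductive Charging libraries (-2.93 ± 0.18, SE; adjusted p = 4.71e-08). The groups did not overlap at the POX1 peak, and the FAT3 peak was named from peaks without overlap.

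Lactate and glycerol use gave 4 lower and 0 higher of 14 peaks (median -0.46), beside 8.72% lower over all peaks. CYB2, the L-lactate dehydrogenase of mitochondria, had 223, 161 and 331 CPM in later Oxidative libraries and 845, 887, 872, 693 and 583 CPM in early Reductive Charging libraries (-1.70 ± 0.24, SE). GCY1, a glycerol dehydrogenase, fell by 1.82 ± 0.26 and STL1, the glycerol importer, by 1.00 ± 0.14. In lower glycolysis 6 of 18 peaks fell and 0 rose (median -0.35), and 4 fell without any one of time points 3, 9 and 10. TDH1 and TDH3, the glyceraldehyde-3-phosphate dehydrogenases, fell by 1.36 ± 0.20 and 1.27 ± 0.21, and PFK2, a phosphofructokinase subunit, by 0.87 ± 0.18. Among 18 peaks of hexose transport and kinases, 6 fell and 1 rose (median -0.26), beside 8.72% lower and 7.54% higher over all peaks. The one that rose was at HXT4, a glucose transporter, with 679, 845 and 350.1 CPM in later Oxidative libraries and 238, 159, 384, 166 and 229.5 CPM in early Reductive Charging libraries (1.41 ± 0.30, SE; adjusted p = 0.00444). Those that fell lay at HXK1 and at HXT5, HXT6, HXT7, HXT8 and HXT9, some of which are near-identical copies, so their separate values are uncertain.

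Further lower peaks belonged to genes outside these pathways. YEF1, an NADH kinase, had 63.8, 72.8 and 75.5 CPM in later Oxidative libraries and 612, 433, 773, 746 and 737 CPM in early Reductive Charging libraries (-3.22 ± 0.25, SE; adjusted p = 3.63e-07). PRR2, a protein kinase, fell by 2.39 ± 0.21 on the log2 scale with all 3 later Oxidative values between 197 and 225 CPM, below the lowest early Reductive Charging value of 817 CPM. GPG1, a proposed partner of a G protein, had a log2 fold change of -3.45 ± 0.83, and of -5.75 without time point 10. A pair of peaks with very few counts had log2 fold changes lower still. The DCS2 peak held 14 counts over the 3 later Oxidative libraries and 979 over the 5 early Reductive Charging libraries (-5.52 ± 0.97, SE), and the CDC3/NKP2 peak held 21 and 719 (-4.37 ± 1.11, SE; -3.61 without time point 4 and -5.52 without time point 9). At this depth their sizes are poorly fixed.

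**Figure D2:**
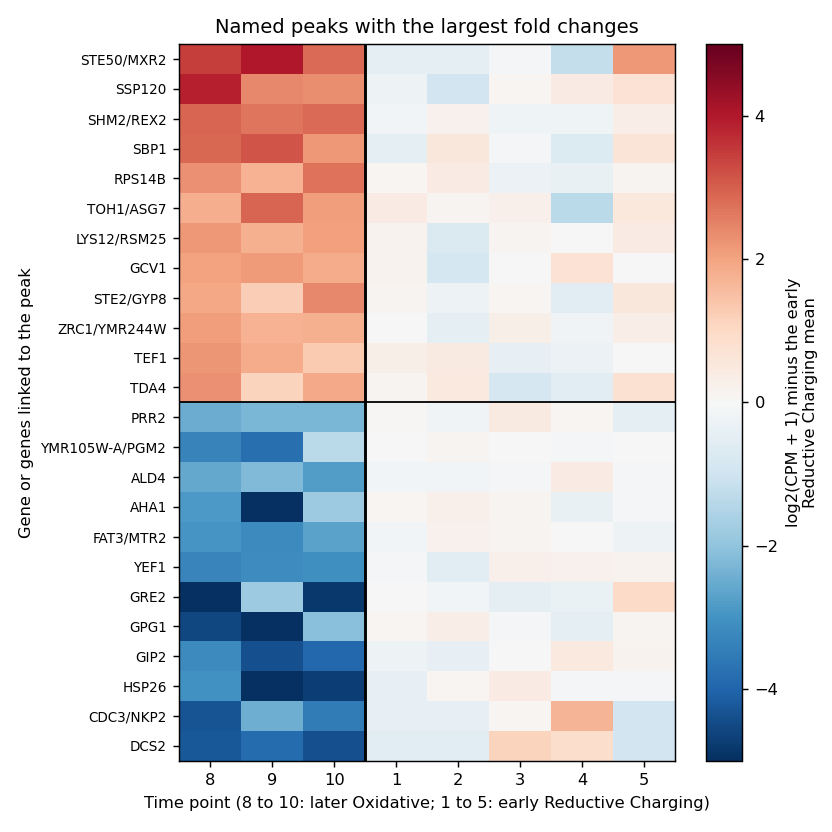
Accessibility of the 12 highest and 12 lowest named peaks in each library, as log2(CPM + 1) minus the early Reductive Charging mean, with time points 8 to 10 on the left and 1 to 5 on the right; colours stop at 5 and -5. The peaks were taken from those whose groups do not overlap. Later Oxidative libraries are therefore all red above the line and all blue below it. The early Reductive Charging library of time point 5 at STE50/MXR2 is the one most displaced from its group.

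Among higher peaks, the histone genes stood together. Histones are made in S phase, and the core histone genes lie in divergent pairs that share 1 promoter. Of 6 histone peaks, 5 rose and 0 fell (median 0.96), also in each fit that left out 1 library. The HHF2/HHT2 peak, of a histone H4 and H3 pair (XIV:575953-576783), had 1749, 1919 and 2467 CPM in later Oxidative libraries and 996, 717, 793, 978 and 1112 CPM in early Reductive Charging libraries (1.15 ± 0.17, SE; adjusted p = 0.00022). The other pair of this kind, HHF1/HHT1, rose by 1.24 ± 0.21, and the H2A and H2B pairs HTA1/HTB1 and HTA2/HTB2 by 1.04 ± 0.19 and 0.88 ± 0.15. HTZ1, the H2A variant of promoters, had 1833, 1864 and 1415 CPM in later Oxidative libraries and 739 to 1075 CPM in early Reductive Charging libraries. At HHO1, the linker histone, the groups overlapped (-0.29 ± 0.34, adjusted p = 0.615). Coding parts of the histone pairs are near-identical, so reads there could be split between copies.

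Some cell cycle entry genes rose. Of 16 peaks of G1 cyclins and the Start programme, 5 rose and 0 fell (median 0.24), with 5 or 6 higher in every fit that left out 1 library. HCM1, a forkhead transcription factor of S phase, shares its peak with BUD31. That peak had 1222, 1102 and 1461 CPM in later Oxidative libraries and 409, 389.6, 446, 431 and 570.3 CPM in early Reductive Charging libraries (1.49 ± 0.17, SE; adjusted p = 2.36e-05). CLN2, a G1 cyclin, had 823, 613 and 435 CPM in later Oxidative libraries and 136, 182.5, 252, 301 and 371 CPM in early Reductive Charging libraries (1.33 ± 0.29, SE). CLB5, an S phase cyclin, rose by 1.28 ± 0.26, PCL1, a cyclin of the kinase Pho85, by 1.22 ± 0.18 and YOX1, a repressor of the M to G1 boundary, by 0.97 ± 0.20. The peak of CLN1, the partner of CLN2, had 1608, 1617 and 1737 CPM in later Oxidative libraries and 1535 to 1761 CPM in early Reductive Charging libraries, so its groups overlapped almost wholly.

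Few peaks of mitosis and of daughter cell separation were called. Of 11 mitotic peaks 2 fell and 0 rose (median -0.36), and of 16 peaks of daughter separation 2 fell and 0 rose (median -0.38), beside 8.72% lower over all peaks. Leaving out 1 library left 1 mitotic peak in 6 of the 8 fits, and the separation peaks called lower numbered 1 without time point 2 and 4 without time point 8. HOF1, a protein of the bud neck ring, shares its peak with EIS1 and had 194, 119.5 and 152 CPM in later Oxidative libraries and 444, 462, 380.5, 353 and 343 CPM in early Reductive Charging libraries (-1.36 ± 0.24, SE; adjusted p = 0.000988). AMN1, an antagonist of mitotic exit, fell by 0.77 ± 0.14. MYO1, the myosin of the ring, had a log2 fold change of -0.58 whose call was lost (adjusted p 0.0502 to 0.12) without any library except that of time point 9, and ASH1, a repressor kept in daughter cells, one of -0.84 that was lost without time point 2 or 10 (adjusted p = 0.0506 and 0.054). Of 11 peaks of DNA replication genes, 1 fell (MCM7, a helicase subunit, -0.87 ± 0.18) and 0 rose.

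Cytosolic ribosomal protein genes rose more often than they fell. Of 121 peaks, 21 (against 7.54% of all peaks) rose and 4 fell, with a median log2 fold change of 0.25, and 88 of the 121 had a fold change above 0. The count was carried unequally by the libraries, since 11 rose without time point 8 and 30 without time point 10, and 2 fell without any one of time points 1, 2 and 8. RPL2A had 4109, 3106 and 2862 CPM in later Oxidative libraries and 1367, 1490, 1768, 1951 and 2038 CPM in early Reductive Charging libraries (0.96 ± 0.16, SE; adjusted p = 0.000646). RPL18B, which shares its peak with TOS6, had 478, 589 and 583 CPM in later Oxidative libraries and 94.0, 188, 122, 169 and 248 CPM in early Reductive Charging libraries (1.75 ± 0.28, SE). RPL21B rose by 1.07 ± 0.19. In the opposite direction, RPS3, on a peak shared with RHO5, had 1437, 1596 and 1884 CPM in later Oxidative libraries and 2988 to 3486 CPM in early Reductive Charging libraries (-0.96 ± 0.14, SE; adjusted p = 0.000186). RPL43B fell by 1.50 ± 0.24, and the other 2 that fell were RPL11B and RPL37B. Most of these proteins have a near-identical paralog, so reads over coding parts may be shared between copies. RPL17B, an accepted mark of the Oxidative phase that shares its peak with ATG27, did not pass, with 1187, 1174 and 865 CPM in later Oxidative libraries and 691 to 959 CPM in early Reductive Charging libraries (0.34 ± 0.17, SE; adjusted p = 0.1825). MRPL10, a mitochondrial ribosome gene and the mark of Reductive Building, had no linked peak.

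A few peaks of amino acid and one-carbon metabolism rose. SHM2, the cytosolic serine hydroxymethyltransferase, which feeds one-carbon units from serine into folate, shares its peak with REX2 (XII:259391-260352). That peak had 1058, 893 and 981 CPM in later Oxidative libraries, against 125, 162, 119.7, 120.3 and 173 CPM in early Reductive Charging libraries (2.80 ± 0.19, SE; adjusted p = 1.44e-07). GCV1, a subunit of the glycine cleavage system, had 355, 380.2 and 315 CPM in later Oxidative libraries and 98.9, 46.9, 84.3, 143 and 86.1 CPM in early Reductive Charging libraries (1.93 ± 0.32, SE). With MET13, a methylenetetrahydrofolate reductase (0.70 ± 0.16), they made 3 higher and 0 lower of 13 peaks of serine, glycine and one-carbon metabolism (median 0.46), beside 7.54% higher over all peaks, and 12 of the 13 had a fold change above 0.

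In sulfur and methionine metabolism 3 of 25 peaks rose and 0 fell (median 0.37), beside 7.54% higher over all peaks, and 7 rose without time point 9. MUP1, the high-affinity methionine permease, had 2585, 2030.0 and 2039 CPM in later Oxidative libraries and 1149 to 1329 CPM in early Reductive Charging libraries (0.83 ± 0.13, SE; adjusted p = 0.000523). MET6, the methionine synthase, rose by 0.84 ± 0.15, and CYS3, the cystathionine gamma-lyase, by 1.25 ± 0.32, a call that was lost without time point 10 (adjusted p = 0.054). Of the 8 lysine peaks 2 rose and 0 fell (median 0.53). LYS12, the homoisocitrate dehydrogenase, shares its peak with RSM25, a mitochondrial ribosomal protein gene. That peak had 291, 219.8 and 268 CPM in later Oxidative libraries and 72.2, 37.6, 69.5, 63.1 and 85.4 CPM in early Reductive Charging libraries (1.98 ± 0.33, SE). LYS14, the activator of the pathway, rose by 1.18 ± 0.30, with its call lost without time point 9 (0.88, adjusted p = 0.0643).

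Other biosynthetic lists moved less evenly. Of 38 peaks of amino acid synthesis, 4 rose and 2 fell (median 0.16), beside 7.54% higher and 8.72% lower over all peaks. In fits without 1 library, 1 fell without time point 2 or 8 and 4 without time point 10. HIS4, of histidine synthesis, had 1394, 2081 and 1747 CPM in later Oxidative libraries and 853, 955, 1072, 1029 and 1185 CPM in early Reductive Charging libraries (0.77 ± 0.16, SE), and AAT2, the cytosolic aspartate aminotransferase, rose by 1.48 ± 0.28. In purine and pyrimidine synthesis 4 of 15 peaks rose and 1 fell (median 0.30), with 2 rising without any one of time points 1, 5 and 9. The highest was ADE17, a late step of purine synthesis, with 347, 132 and 589 CPM in later Oxidative libraries and 87.6 to 154 CPM in early Reductive Charging libraries (1.56 ± 0.36, SE). One of its later Oxidative values lay within the other group, and without time point 10 its log2 fold change was 0.98 with an adjusted p of 0.0795. The ADE1 peak, shared with BUD14, rose by 1.45 ± 0.33, and the ADE8 peak, shared with SIZ1, fell by 1.77 ± 0.45.

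The respiratory chain passes electrons from NADH and succinate to oxygen. Of its 31 peaks, 3 rose and 1 fell, beside 7.54% higher and 8.72% lower over all peaks, with a median log2 fold change of 0.23, and 22 had a fold change above 0. In fits without 1 library the number that rose was 1 without time point 1, 4 or 10 and 5 without time point 8. COX13, a subunit of cytochrome c oxidase, had 311, 304 and 475 CPM in later Oxidative libraries and 200.3, 137, 225, 209 and 179.7 CPM in early Reductive Charging libraries (0.93 ± 0.25, SE), with the call lost without time point 10 (adjusted p = 0.0879). CYC7, the cytochrome c isoform of low oxygen, fell by 1.38 ± 0.27 while sharing its peak with UTR4. Of 21 citric acid cycle peaks, 1 (IDH2, an isocitrate dehydrogenase subunit, 0.78 ± 0.22) rose and 0 fell, and it was not called without any one of time points 2, 3, 9 and 10 (adjusted p 0.0542 to 0.0753). Mitochondrial ribosome and import genes gave 3 higher and 1 lower of 35 peaks, and 5 higher without time point 10. Among those that rose, RSM25 shares its peak with LYS12, and YML6 shares its peak with RPS17A, genes of other lists. Ribosome biogenesis genes gave 0 higher and 1 lower of 16, and 54 of the 70 genes of that list had no linked peak. Translation factors gave 1 higher and 4 lower of 18 (1 lower without time point 3, 4, 5 or 10). The highest log2 fold change counted there was 0.77. Called rises linked to TEF1 (1.80 ± 0.28) and TEF2 (1.62 ± 0.28) are therefore outside that count. Lipid and sterol synthesis gave 1 higher and 2 lower of 29, proteasome and autophagy 0 and 2 of 23, and carbon regulators 0 and 1 of 13. The calls of the last 5 groups were few enough that leaving out 1 library left 0 in some of them, as it did for time point 1 in the carbon regulator and proteasome lists.

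**Figure D3:**
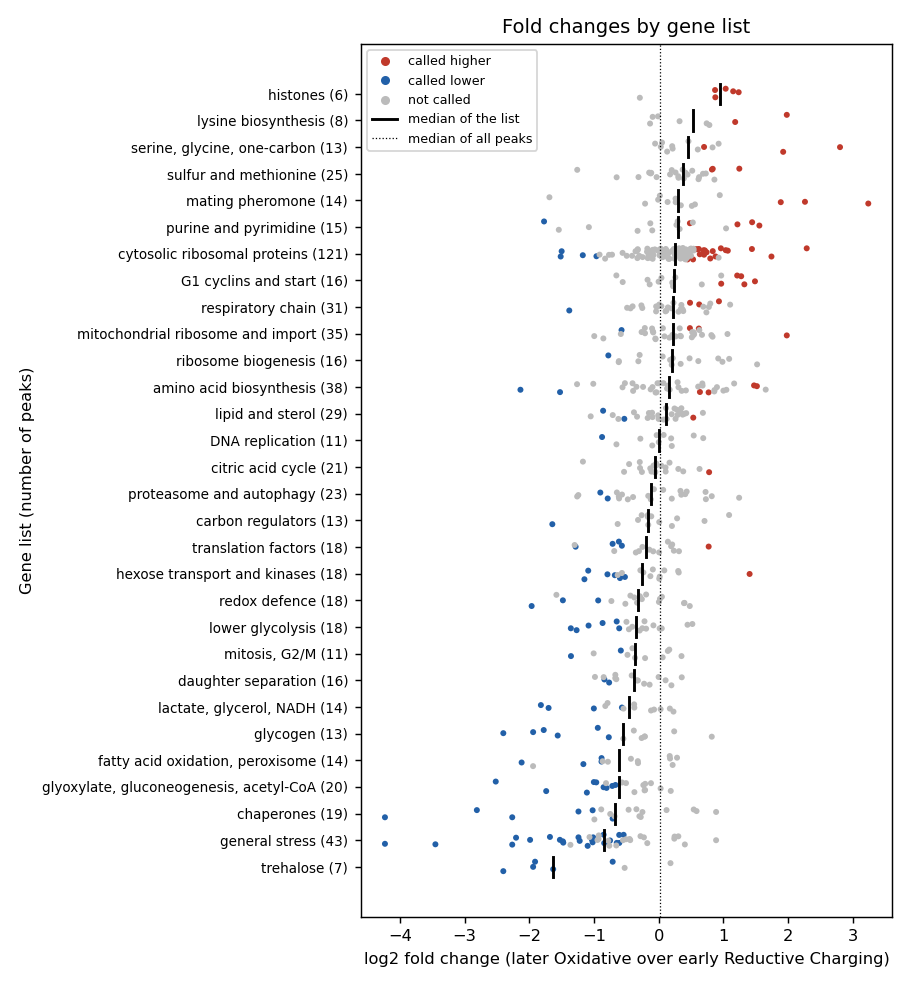
Log2 fold change (later Oxidative over early Reductive Charging) of each linked peak by gene list, with the number of peaks in brackets; red and blue points are called higher and lower, black bars are list medians and the dotted line is the median of all peaks. Among the lists plotted, trehalose (median -1.63) and general stress (-0.84) lie lowest and histones (0.96) highest.

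Peaks linked to mating genes were among the highest. Of 14 peaks 3 rose and 0 fell (median 0.30), beside 7.54% higher over all peaks. STE2, the receptor for alpha-factor, shares its peak with GYP8 and had 691, 427 and 944 CPM in later Oxidative libraries and 196, 152, 194, 119.5 and 267 CPM in early Reductive Charging libraries (1.89 ± 0.28, SE; adjusted p = 0.00024). A peak linked to TOH1 and to ASG7, an a-cell regulator of pheromone signalling, rose by 2.26 ± 0.50. It covered the 5′ end of neither gene and lay nearer to that of TOH1. The peak linked to STE50, an adaptor of the pheromone kinase cascade, and MXR2 rose by 3.24 ± 0.93, but on few reads: it had 34.5, 50.4 and 22.1 CPM in later Oxidative libraries and 1.33, 1.39, 2.11, 0.41 and 13.5 CPM in early Reductive Charging libraries. The STE50 call was lost without time point 1, 2 or 3 (adjusted p = 0.0591, 0.066 and 0.06), and without time point 5 the fold change was 4.77. The remaining named peaks that rose most were at ZRC1, a vacuolar zinc transporter (1.84 ± 0.23, with 547 to 704 CPM in later Oxidative libraries and 118 to 208 CPM in early Reductive Charging libraries), SBP1, an RNA-binding protein (2.69 ± 0.35), TEF1, translation elongation factor 1 alpha, whose coding sequence is nearly the same as that of TEF2 (1.80 ± 0.28), RPS14B (2.29 ± 0.35), SSP120 (2.99 ± 0.44, and 2.29 without time point 8) and TDA4 (1.75 ± 0.48, not called without time point 8, adjusted p = 0.103). None of these remaining peaks, that of TEF1 included, covered the 5′ end of a coding gene.

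**Figure D4:**
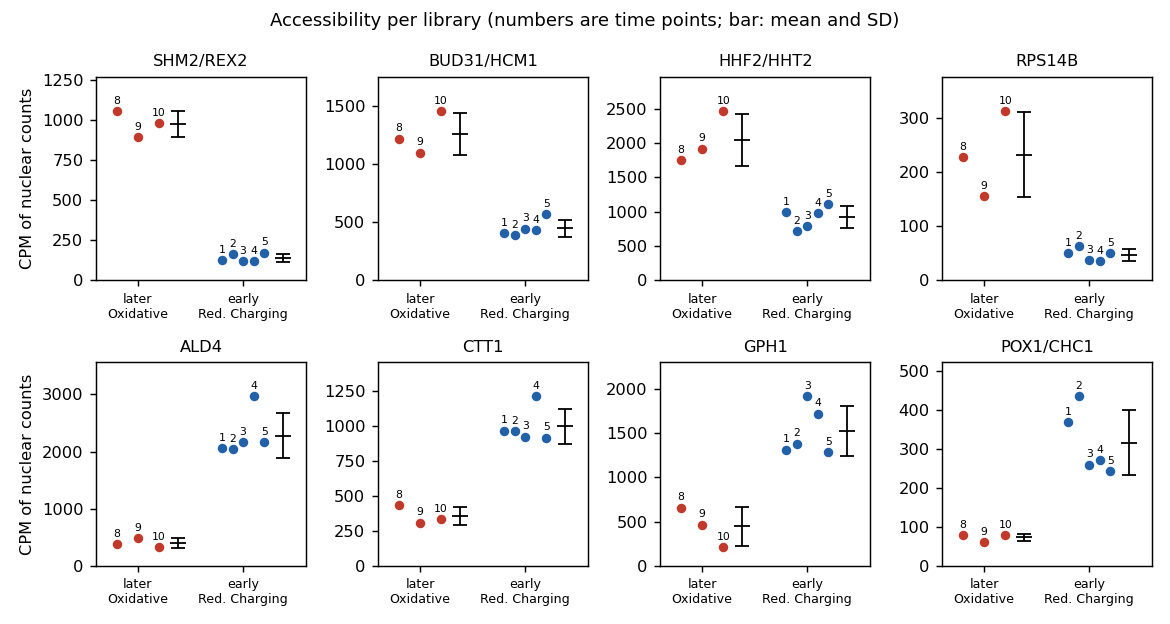
CPM of nuclear counts in each library for 4 peaks that rose (top) and 4 that fell (bottom); points are libraries numbered by time point, later Oxidative in red on the left and early Reductive Charging in blue on the right, with bars for mean and SD. The groups do not overlap in any of the 8 panels, and SHM2/REX2, RPS14B and ALD4 were named from peaks without overlap.

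Where the peaks lie moved with the direction of change. This split by position was chosen after the values had been seen, so it is described without a test. Of the 150 peaks that lay wholly inside a coding gene, 24 rose (16.0%) and 2 fell (1.33%), with a median log2 fold change of 0.88, and 124 of them had a fold change above 0. The other 1892 peaks had a median of -0.02. Of the 1005 peaks that covered a 5′ end, 81 rose and 93 fell (median 0.03). Peaks inside genes were short, with a median length of 325 bp against 595 bp over all peaks. They took 1.62%, 1.16% and 1.66% of nuclear counts in later Oxidative libraries, against 0.764% to 1.01% in early Reductive Charging libraries, so the groups did not overlap.

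Of the 24 higher peaks inside genes, 10 lie within 10 kb of a chromosome end, taken as the outermost annotated gene. They fall in YRF1-1, YRF1-2, YRF1-3, YRF1-6 (with 2 peaks), YRF1-7, YBL113C, YLL067C, YML133C and YPR204W, with log2 fold changes of 0.78 to 1.41. The YRF1 genes encode helicases of the subtelomeric Y′ repeats and are near-identical copies, so their separate values are uncertain. The other 14 lie elsewhere. Inside FKS1, the glucan synthase gene, a peak had 158, 187 and 107 CPM in later Oxidative libraries and 22.4, 10.2, 0, 24.4 and 5.35 CPM in early Reductive Charging libraries (3.58 ± 0.86, SE; adjusted p = 0.00875), which was the highest fold change among called peaks. The peak linked to SSP120 lies inside YEF3, the gene of translation elongation factor 3, and had 520.4, 182 and 172 CPM in later Oxidative libraries and 28.3, 17.2, 35.9, 44.8 and 56.6 CPM in early Reductive Charging libraries. Another peak inside YEF3 rose by 2.21 ± 0.52, one inside MET5, of sulfite reduction, by 2.68 ± 0.58, and one inside ILV5, of branched-chain amino acid synthesis, by 1.63 ± 0.33. The RPS14B peak lies inside that gene and had 228.5, 156 and 314 CPM in later Oxidative libraries and 50.6, 63.2, 37.6, 36.3 and 51.0 CPM in early Reductive Charging libraries. Of the 12 named peaks with the highest fold changes, 4 lie inside coding genes (STE50/MXR2, SSP120, RPS14B and TDA4), against 0 of the 12 lowest. When peaks inside coding genes were left out of the fit, 153 of 1892 peaks rose and 167 fell, and 297 of the 306 original calls among them held.

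The libraries outside the comparison place these changes in the cycle. Only libraries with good nuclear coverage were used, each set on a scale where 0 is the early Reductive Charging mean and 1 the later Oxidative mean in log2(CPM + 1). Time points 6 and 7 are labelled Oxidative too. Their median positions were 0.41 and 0.19 at the 154 higher peaks, and 0.21 and 0.26 at the 178 lower peaks. Time point 6 was nearer to early Reductive Charging at 95 of the higher and 138 of the lower peaks, and time point 7 at 123 and 141. At most called peaks the earlier Oxidative libraries therefore lay closer to early Reductive Charging than to the later Oxidative mean. Both the called peaks and the scale rest on the compared libraries, and how much of this closeness comes from that choice was not tested. Spearman correlations over all nuclear peaks do not use the calls. For time point 6 they were 0.915 to 0.929 with early Reductive Charging libraries and 0.867 to 0.879 with later Oxidative ones. For time point 7 they were 0.937 to 0.969 and 0.88 to 0.887. Later Oxidative libraries correlated at 0.873 to 0.889 among themselves. Mitochondrial peaks took 46.7% of the counts at time point 6 and 34.8% at time point 7.

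The gene groups differed in where the Reductive Building libraries, time points 12 and 14, lay. At the 5 higher histone peaks their median positions were 0.88 and 0.71, and at the 5 higher G1 and Start peaks 0.77 and 0.61. Time point 12 was nearer to the later Oxidative mean at 3 of those 5 peaks and time point 14 at 4, and time point 6 lay at 0.65 there. At the 21 higher ribosomal protein peaks the positions were -0.22 and -0.54, below the early Reductive Charging mean. At the 23 lower stress peaks they were 0.28 and 0.02. Time point 17, in late Reductive Charging, had medians of 0.02 over all higher peaks and -0.08 over all lower peaks, near the early Reductive Charging mean. Its single peaks were widely spread, with quartiles of -0.645 and 0.623 at higher peaks and -0.432 and 0.343 at lower ones. That library had 42 nuclear peaks at 0. Each of these positions is that of 1 library, with no replicate.

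**Figure D5:**
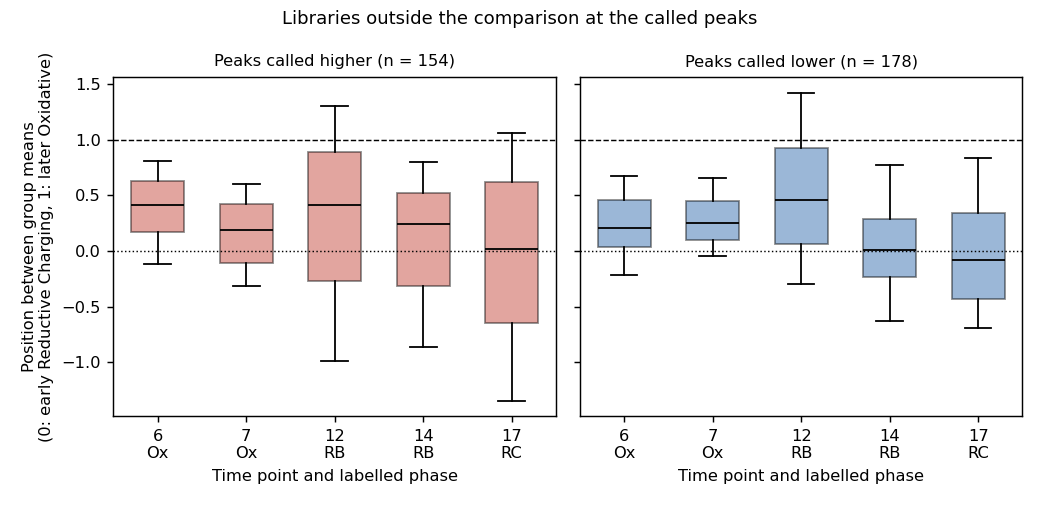
Position of 5 libraries outside the comparison at the peaks called higher (left) and lower (right), on a scale where 0 (dotted) is the early Reductive Charging mean and 1 (dashed) the later Oxidative mean; boxes span the quartiles over peaks, lines are medians and whiskers run from the 10th to the 90th percentile. Time points 6 and 7 (Ox, Oxidative) have medians between 0.19 and 0.41, and time points 12 and 14 (RB, Reductive Building) and 17 (RC, Reductive Charging) spread more widely.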

How the data were processed

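The deposited table holds the authors' raw counts per peak over 1 common peak list, matched to libraries by column name, with 0 columns left unmatched. The submitters' processing notes name Trimmomatic, Bowtie2 and MACS2, and R64 as the build. The sources used here say nothing of versions, how reads were counted, shifted or deduplicated, or whether peaks came from pooled libraries. The part of these steps in the results was not tested. Peak starts were written 1-based. Links used 5′ ends of coding gene models in the RefSeq table of R64, which held no sequence, with strand from the systematic name. A gene with several linked peaks was represented in its list by the peak of highest mean.

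The 8 libraries were fitted with edgeR 4.0.16 in R 4.3.3 (library size from nuclear counts, TMM, filterByExpr, which removed 0 peaks, robust quasi-likelihood F test) and p-values were adjusted over 2042 peaks by Benjamini-Hochberg, with a threshold of 0.05. Each SE is the fold change divided by the square root of F. Libraries outside the comparison were scaled with TMM over the 13 libraries with good nuclear coverage (time points 1 to 10, 12, 14 and 17). The code was tested on simulated data. Limma 3.58.1, DESeq2 1.42.0 and matplotlib 3.10.9 served for alternatives and plots.

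The text names the 12 highest and 12 lowest fold changes among called peaks that separate the groups and have a gene of standard name (not of the PAU or COS families, transposons, transfer RNA or ribosomal DNA), the 3 members of each list with the smallest p, and 3 cycle marks. Other genes named were chosen after their values were seen. The comparison, the lists and the tests were chosen with earlier results of these data known. Depth, scaling, filter, tool, library and linking alternatives are given in the closing section.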

Additional observations from a re-analysis of the deposited data

Results flagged for a closer look

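In 8 of 105 groups of 5 early Reductive Charging libraries that were examined, 1 library lay far from the other 4 by Dixon's criterion. Chance alone gives about 1 in 20 such groups. In 3 of the 7 peaks and in the ribosomal DNA share, the library was that of time point 4, and the remaining peaks involved time points 2 and 5.

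The ribosomal DNA share was 25.1% at time point 4, with a gap of 0.799 of the group's range. At ALD4 time point 4 had 2966 CPM, against 2037 to 2162 CPM in the other 4 libraries (gap 0.866). At CTT1 it had 1210 CPM, against 916 to 966 CPM (gap 0.832). At CDC3/NKP2 it had 63.9 CPM, against 9.31 to 20.2 CPM (gap 0.801). ALD4 and CTT1 were called lower in later Oxidative libraries with and without this library.

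Time point 5 had 13.5 CPM at STE50/MXR2, against 0.409 to 2.11 CPM in the other 4 libraries (gap 0.87). At GRE2 it had 130.6 CPM, against 47.9 to 65.6 CPM (gap 0.786). Time point 2 had 321 CPM at CCP1/GPT2, against 217 to 241 CPM (gap 0.774), and 147 CPM at CYS3, against 74.95 to 93.5 CPM (gap 0.742).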

How the results depend on the processing

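Every one of the 332 calls kept its direction in all settings that tested it, including those that called fewer peaks. With all 18 libraries in 5 groups, edgeR called 0 peaks in either direction (27 at an unadjusted p under 0.05); the added libraries include those with very few nuclear counts, and the cause was not tested. Limma-voom with library quality weights called 116 lower peaks instead of 178, and 147 higher; the cause was not tested. All other settings kept the numbers within 1.5 times: 161 higher and 182 lower without TMM, 160 and 177 with DESeq2 size factors, 192 and 185 with loess offsets, 166 and 176 with every peak of the table, 154 and 178 with no filter, 155 and 178 with a stricter one, 210 and 229 with DESeq2, 212 and 217 with limma-voom, 108 and 127 with 13 libraries, 153 and 178 without robust dispersion, and, chosen after seeing the data, 159 and 173 with counts thinned to the smallest library and 153 and 167 without peaks inside coding genes. Leaving out each library in turn gave 250 to 360 calls, 114 to 176 higher and 136 to 191 lower. It moved the difference in the mitochondrial share of counts between -39.2 and -29.9 and that in the ribosomal DNA share of counts between 18.3 and 23.4 percentage points. Of the 90 named calls, 76 to 90 held in each setting other than all 18 libraries, where 0 held, and 67 held in all 8 fits without 1 library. Of 153 recomputed list medians, 11 moved by more than the spread between libraries and 3 changed sign, in the lists of DNA replication, carbon regulators and cycle marks. Of the medians given in the text, those that changed over 1.5 times were 0.668 for G1 and Start and -0.401 for hexose transport (links within 250 bp), -0.375 for fatty acid oxidation (1000 bp), and, with peaks linked to 1 gene alone, 0.111 for G1 and Start, 0.422 for amino acid synthesis, -0.323 for glycogen, 0.324 for lysine, 0.483 for mating and -0.131 for mitosis. No paired analysis was possible because each time point belongs to 1 group and the replicate numbers only name time points. Peaks with few counts, such as DCS2 and CDC3/NKP2, have poorly fixed sizes. Each SE follows from the F test and reflects nothing beyond the spread of time points within a group.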

Other observations

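Cell wall genes rose more often than they fell. This list was put together after the values had been seen and has no test of its own. Of 48 linked peaks, 17 rose in later Oxidative libraries and 5 fell, beside 7.54% higher and 8.72% lower over all peaks. The median log2 fold change was 0.37, beside 0.02 over all peaks. In fits without 1 library, 12 to 17 rose and 5 or 6 fell. UTH1, a wall protein of the SUN family, shares its peak with YKR041W and had 4020, 4675 and 3771 CPM in later Oxidative libraries and 1629, 1452, 1663, 1375 and 1541 CPM in early Reductive Charging libraries (1.44 ± 0.13, SE; edgeR adjusted p = 1.81e-06). FKS1, the glucan synthase, had a promoter peak with 2004, 2181 and 2194 CPM in later Oxidative libraries and 893 to 1243 CPM in early Reductive Charging libraries (0.97 ± 0.14, SE), apart from the peak inside its coding part. MSB2, a mucin of the osmosensing and filamentation pathways, rose by 1.08 ± 0.14, and PSA1, which makes GDP-mannose for wall mannoproteins, by 1.33 ± 0.20. The wall genes that fell were CWP1, TIP1, PST1, SED1 and SPI1. CWP1, a mannoprotein, had 686, 503 and 666 CPM in later Oxidative libraries and 1191 to 1354 CPM in early Reductive Charging libraries (-1.04 ± 0.15, SE). TIP1 and SPI1 are also on the list of stress genes.

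Genes for the use of sucrose, maltose and isomaltose, a list chosen in the same way, had 7 lower and 0 higher of 12 peaks (median -0.93), with 5 to 7 lower in fits without 1 library. The MAL31/MAL32 peak, of a maltose permease and a maltase, fell by 1.38 ± 0.35. The peak shared by SUC2, the invertase, and YIL163C fell by 0.68 ± 0.22, a call that was lost without any one of time points 1, 2, 3, 5, 9 and 10 (adjusted p 0.0695 to 0.152). The peaks of IMA1, IMA2, IMA3, IMA4 and IMA5, the isomaltases, fell by 0.86 to 1.15 on the log2 scale. Those of IMA4 and IMA5 are the peaks shared with HXT9 and HXT8 that the hexose list already counts. The IMA3 call was lost without any one of time points 1, 2, 3, 5, 8 and 9 (adjusted p 0.055 to 0.0991). These genes lie near chromosome ends in near-identical copies, so the separate values are uncertain.

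At 3 of the 4 genes with 2 or more called peaks, the calls went in opposite directions. At TEF2 (5′ end at II:477671) the peak over the 5′ end fell by 0.57 ± 0.18, while a peak that starts 414 bp away, at 478085, rose by 1.62 ± 0.28. The groups overlapped at the lower of these peaks, which had 1009, 604 and 857 CPM in later Oxidative libraries and 993 to 1359 CPM in early Reductive Charging libraries, and its call was lost without any one of time points 2, 3, 4, 5, 9 and 10 (adjusted p 0.056 to 0.152). At the higher TEF2 peak, reads may be shared with TEF1, whose coding sequence is nearly the same. At TDA4 the peak before the gene had a log2 fold change of -0.57 ± 0.17 and the peak inside it 1.75 ± 0.48. The first call was lost without any one of time points 1, 3, 5, 8 and 10 (adjusted p 0.054 to 0.0932), and the second without time point 8. At YKR041W the peak on the 5′ end, shared with UTH1, rose by 1.44 ± 0.13 and the one 261 bp away fell by 1.32 ± 0.33.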
